A study of Mus musculus with 4 samples.

Results

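The 7 mammalian sirtuins (Sirt1 to Sirt7) and 3 genes of NAD synthesis (Nampt, Nmnat1 and Nmnat3) were followed in intestinal stem cells (ISCs) of young and old mice. Members were picked out by gene symbol, from a list drawn up with earlier results of these data known, and all 10 were found among the 52459 genes of the count table. All 10 also passed the filter on low counts in each of the 4 libraries, and that filter left 13692 genes for testing. ISCs came from wild-type C57/Bl6 mice that carried no transgene and received no treatment. Age was the only difference between the groups in the sample labels, with 2 libraries from mice of 2 months (ISC_2mth) and 2 from mice of 22 months (ISC_22mth). Each library held RNA of the sorted cells from a pool of 5 animals, so that spread between single animals could not be seen. The sort kept epithelial crypt cells that were high for EPHB2 and CD44, positive for CD166 and EPCAM, intermediate for CD24 and low for GRP78, and it removed cells with CD31 or CD45. RNA was amplified along the whole transcript by single primer isothermal amplification (SPIA) and sequenced without molecular identifiers.

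NAD is a coenzyme of energy metabolism that shuttles electrons, and it is also used up as a substrate by sirtuins, poly(ADP-ribose) polymerases and the NAD glycohydrolase CD38, all of which release nicotinamide. NAMPT is the rate-limiting enzyme that turns nicotinamide back into nicotinamide mononucleotide, which the NMNAT enzymes join to adenylate to make NAD. Sirtuins are NAD-dependent enzymes that take acetyl and other acyl groups off lysines, with SIRT1, SIRT6 and SIRT7 mainly in the nucleus, SIRT2 mainly in the cytosol, and SIRT3, SIRT4 and SIRT5 in mitochondria. In the crypt, SIRT1 in stem cells has been tied to the response to diet and to NAD supply.

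Reads counted on genes came to between 11662654 and 15975698 per library, of which between 3852178 and 4593004 lay outside genes encoded by the mitochondrial genome. The share of counts on mitochondrially encoded genes was 62.6% and 65.7% in the young pools, against 73.8% and 72.9% in the old pools, so levels are given as CPM, counts scaled to library size after TMM normalization. All 6 stem cell markers on the list used (Lgr5, Ascl2, Olfm4, Smoc2, Axin2 and Sox9) were expressed, with a summed level between 1655 and 1941 CPM. In edgeR's quasi-likelihood test 0 of the 6 differed between ages at an FDR under 0.05, against 2.26% of all genes tested. An unadjusted p under 0.05 was reached by 3 of the 6, against 16.9% of all genes tested. Axin2 (log2 fold change -0.46, FDR = 0.0511) and Sox9 (-0.28, FDR = 0.247) were lower in old ISCs, and Ascl2 (0.33, FDR = 0.199) was higher. The pool ISC_22mth replicate 1 stood apart in its Paneth cell markers. Their summed level (Lyz1, Mmp7, Defa24, Ang4 and Itln1) was 1947 CPM there, against 749.5 CPM in the other old pool and 680.1 and 884 CPM in the young pools. The 6 enterocyte markers summed to 64.9 and 79.5 CPM in young and to 265 and 157 CPM in old ISCs, and 2 of the 6 rose. The 6 enteroendocrine markers summed to 27.2 CPM in ISC_2mth replicate 1, against 125 CPM in the other young pool and 110 and 77.4 CPM in the old pools. Of the tuft cell markers 4 were tested and 1 rose, Dclk1, with 4 counts in each young pool and 42 and 19 in the old pools (FDR = 0.0258). Results that rest on ISC_22mth replicate 1 are given with and without it. In bulk RNA, fewer cells of a type and less RNA per cell cannot be told apart.

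Nampt rose in old ISCs and was the only one of the 10 members to pass an FDR of 0.05, in edgeR's quasi-likelihood test over all genes. Nampt was counted 191 and 224 times in young and 363 and 249 times in old ISCs. After normalization its level was 13.2 and 14.8 CPM in young ISCs and 27.5 and 20.4 CPM in old ISCs. The ages did not overlap, and the old pools lay further apart than the young pools did. The mean level rose from 14.0 ± 1.18 CPM (SD, n = 2 pools) to 23.9 ± 5.00 CPM (n = 2), or by 0.77 on the log2 scale (standard error 0.18, FDR = 0.0281). This is 1.71-fold, with a 95% interval from 1.31 to 2.22. By the same test 2.26% of all genes tested differed between ages, with 1.63% higher and 0.628% lower at 22 months. With pools of this number, the smallest two-sided p of an exact permutation test is 0.333, and no such test is given. The paper's own list of genes that differ with age already holds Nampt as higher in old ISCs.

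**Figure D1:**
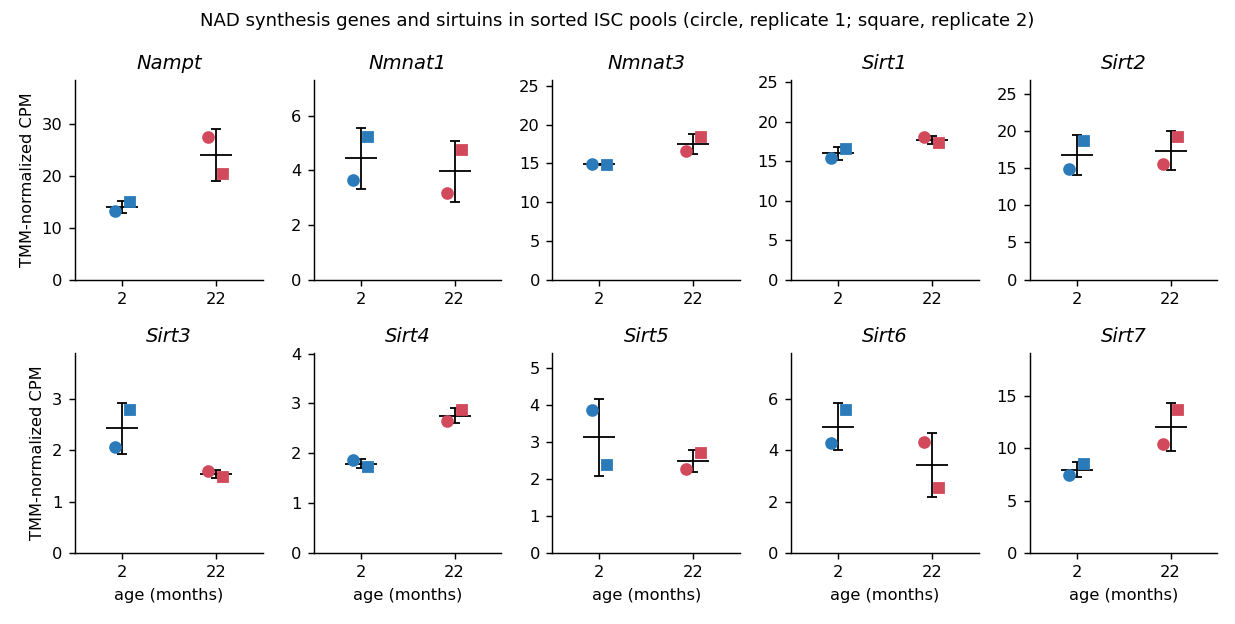
Level of each member (TMM-normalized CPM, vertical axis, each panel from 0 on its own scale) at 2 and 22 months of age. Each symbol is 1 pool, and the bar and whiskers are the mean ± SD of the 2 pools of an age. Nampt lies at 13.2 and 14.8 CPM in young and at 27.5 and 20.4 CPM in old ISCs, whereas the pools of Sirt2 (between 14.9 and 19.2 CPM) overlap between ages.

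The rise of Nampt rested in part on 1 old pool. Without ISC_22mth replicate 1, the log2 fold change of Nampt was 0.54 (FDR = 0.118), and without ISC_2mth replicate 1 it was 0.69 (FDR = 0.150). Without each of the other pools it was 0.86 (FDR = 0.0247) and 0.97 (FDR = 0.000106). With all pools, Nampt missed the threshold with DESeq2 (0.77, FDR = 0.0618), total counts (0.28, FDR = 0.252) and offsets for GC content and length (0.65, FDR = 0.0809). Transcripts of Nampt have a GC content of 41.4%, and 10.1% of the genes tested have a lower one. ISC_22mth replicate 1 is the pool with the high Paneth cell markers, whereas the enterocyte markers were higher in both old pools than in the young pools. The part of these cell types in the level of Nampt was not tested. Leukocytes also express Nampt. The summed level of leukocyte markers was 15.2 and 16.2 CPM in young and 22.9 and 23.1 CPM in old ISCs. Of 11 such markers, Adgre1, S100a8 and S100a9 had 0 counts in all 4 libraries (under the floor of 3 counts, or between 0.199 and 0.246 CPM, for each), and 2 passed the filter. Only Itgam rose among them, from 10.2 and 13.0 CPM in young to 19.2 and 20.6 CPM in old ISCs (FDR = 0.0296), and its part in the level of Nampt was not tested. The other 10 summed to 72 and 48 counts in young and to 48 and 30 counts in old ISCs.

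**Figure D2:**
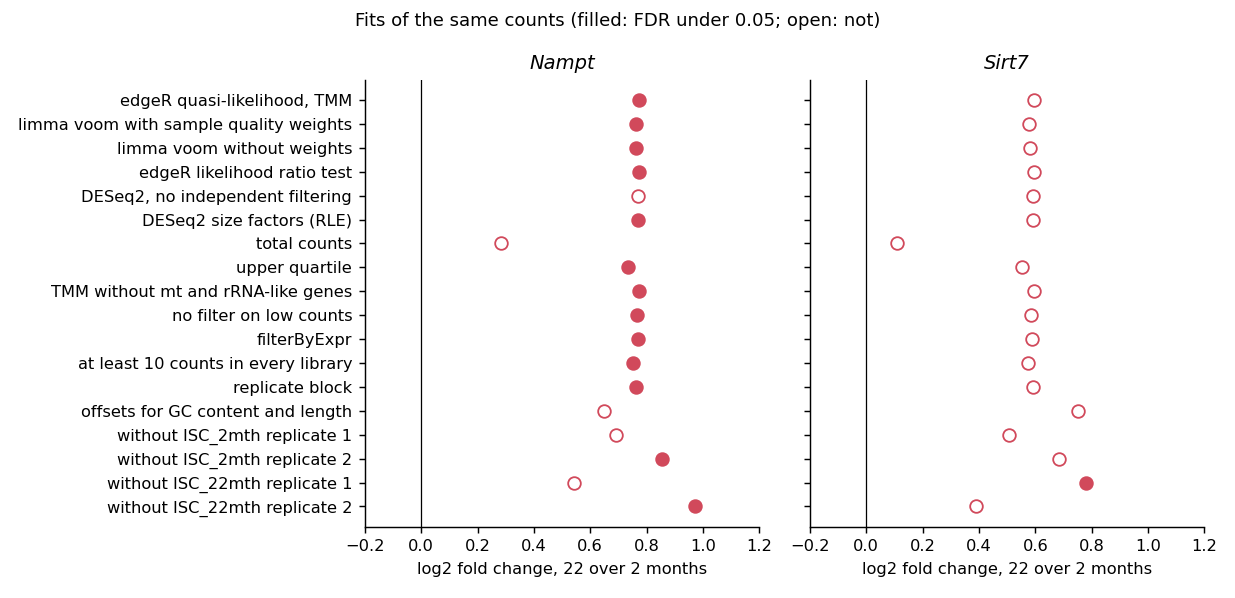
Log2 fold change between ages (horizontal axis) of Nampt and Sirt7 in 18 fits of the same counts, named on the vertical axis. Filled points passed an FDR of 0.05. All 18 values of Nampt lie above 0, from 0.28 with total counts to 0.97 without ISC_22mth replicate 2, and Sirt7 passed only without ISC_22mth replicate 1 (0.78).

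Nampt lies on chromosome 12 from 32819545 to 32853349 of GRCm38 on the plus strand, is protein-coding, and has no exon that overlaps another gene in the GENCODE vM21 annotation. Its transcripts shared no stretch of 50 nt with another gene. Its promoter is shown because Nampt was the member that changed. The 250 bases before the RefSeq start of Nampt (GRCm38.p6, plus strand, chr12:32820085-32820334, within an intron of a longer annotated transcript) are written 5′ to 3′ with GC boxes (GGGCGG or its reverse complement) in capitals. For comparison, the 250 bases before the RefSeq start of Sirt1 (minus strand, chr10:63339036-63339285, the end of which overlaps an exon of a longer Sirt1 transcript) are written with E-boxes (CACGTG, which reads the same on both strands) in capitals, since E-boxes are the letters bound by the circadian factors CLOCK and BMAL1, known activators of Nampt.
Nampt: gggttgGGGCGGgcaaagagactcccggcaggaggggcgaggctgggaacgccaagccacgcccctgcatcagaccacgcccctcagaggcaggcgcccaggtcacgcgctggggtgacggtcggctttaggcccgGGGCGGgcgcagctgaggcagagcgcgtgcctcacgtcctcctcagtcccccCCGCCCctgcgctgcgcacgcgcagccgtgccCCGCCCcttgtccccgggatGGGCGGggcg
Sirt1: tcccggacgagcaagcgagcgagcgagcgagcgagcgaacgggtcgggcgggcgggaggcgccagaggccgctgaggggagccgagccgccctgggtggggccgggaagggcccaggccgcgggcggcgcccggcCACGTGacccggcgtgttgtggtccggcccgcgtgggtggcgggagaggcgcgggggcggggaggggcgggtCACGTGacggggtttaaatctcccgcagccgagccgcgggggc

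Promoter windows from 250 bases before to 50 after the start were matched for all 10 members (13 windows). Nampt had 5 GC boxes and no E-box in its window, and Sirt1 had 2 E-boxes, which start 115 and 43 bases before the start, and 7 GC boxes. The windows of these genes were among the most GC-rich, at 76.3% for Nampt and 79% for Sirt1 against a median of 52.7% over all 32851 windows. A GC box occurred in windows of 9 of the 10 members and in 35.7% of all windows, an E-box in 1 member and in 7.15% of all windows, and a TATA box (TATAAA on either strand) in 0 members and in 13.6% of all windows. A member was counted if any of its windows matched, whereas the percentages are shares of single windows, so these units differ. None of the 3 motifs contains another. A match describes letters in these windows only.

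Of the enzymes that act after NAMPT, neither Nmnat1 nor Nmnat3 passed the test. Nmnat3 encodes the mitochondrial enzyme and lies on chromosome 9 from 98287435 to 98420438. Nmnat3 counts were 216 and 224 in young and 219 and 225 in old ISCs, or 14.9 and 14.8 CPM against 16.6 and 18.4 CPM. Its old pools lay above its young pools, by a log2 fold change of 0.23 (95% interval -0.13 to 0.60, FDR = 0.531). Nmnat1 encodes the nuclear enzyme and lies on chromosome 4 from 149467572 to 149485202. Nmnat1 counts were 53 and 79 in young and 42 and 58 in old ISCs, and its level of 3.66 and 5.23 CPM in young overlapped that of 3.18 and 4.75 CPM in old ISCs. Its log2 fold change was -0.17 (interval -0.84 to 0.50, FDR = 0.838), and its sign turned without ISC_2mth replicate 2 (0.11) or ISC_22mth replicate 1 (0.094). The interval of Nmnat1 still holds a change as large as that measured for Nampt in the downward direction, but not in the upward direction.

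Among the nuclear sirtuins, Sirt7 came closest to the threshold. Sirt7, a deacetylase of the nucleolus, lies on chromosome 11 from 120618372 to 120625240, and its counts were 108 and 128 in young and 138 and 167 in old ISCs. This gave 7.45 and 8.48 CPM against 10.4 and 13.7 CPM, so that the ages did not overlap. The log2 fold change was 0.60 (95% interval 0.14 to 1.05), and its unadjusted p of 0.0132 in edgeR's quasi-likelihood test became an FDR of 0.167 over all genes. Without ISC_22mth replicate 1, the pool on which Nampt partly rested, Sirt7 had a log2 fold change of 0.78 (FDR = 0.0477). Without each of the other pools it was 0.51 (FDR = 0.597), 0.69 (FDR = 0.251) and 0.39 (FDR = 0.469). Exons of Sirt7 overlap those of Mafg on the same strand over 124 bp, 2.41% of its exonic length.

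Sirt1, the best studied sirtuin, which deacetylates transcription factors and histones, lies on chromosome 10 from 63319005 to 63381704. Sirt1 counts were 223 and 250 in young and 239 and 212 in old ISCs, which corresponds to 15.4 and 16.6 CPM against 18.1 and 17.4 CPM. The pools did not overlap, but the log2 fold change was only 0.15 (standard error 0.17, FDR = 0.708), and its 95% interval runs from 0.866-fold to 1.42-fold. Sirt6, which acts on chromatin and in DNA repair, lies on chromosome 10 from 81621785 to 81627797. Sirt6 counts were 62 and 84 in young and 57 and 31 in old ISCs, and its levels of 4.28 and 5.57 CPM in young and 4.31 and 2.54 CPM in old ISCs overlapped. The log2 fold change of Sirt6 was -0.52 (interval -1.20 to 0.17, FDR = 0.452), and it varied from -0.95 to -0.19 as single pools were left out.

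Sirt2, a cytosolic deacetylase of tubulin and other proteins, gave almost the same mean level at both ages. It lies on chromosome 7 from 28766735 to 28788661. Sirt2 counts were 216 and 282 in young and 205 and 235 in old ISCs, with 14.9 and 18.7 CPM against 15.5 and 19.2 CPM. Replicate pools of an age differed by more than the ages did, with means of 16.8 ± 2.68 CPM (SD, n = 2) and 17.4 ± 2.64 CPM (n = 2). The log2 fold change was 0.047, and its 95% interval of 0.791-fold to 1.35-fold does not hold the mean change of Nampt.

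The mitochondrial sirtuins were the least expressed members and did not move in 1 direction. Sirt3, the main mitochondrial deacetylase, lies on chromosome 7 from 140863666 to 140882309, with 30 and 42 counts in young and 21 and 18 in old ISCs. Both old pools (1.59 and 1.47 CPM) lay below both young pools (2.07 and 2.78 CPM), by a log2 fold change of -0.66 (interval -1.62 to 0.30, FDR = 0.495). Exons of Sirt3 overlap those of Ric8a over 418 bp and of Psmd13 over 342 bp on the opposite strand, and since no strand setting is stated for the counting, reads there cannot be assigned to Sirt3. Sirt4, which acts on other acyl groups and as an ADP-ribosyltransferase, lies on chromosome 5 from 115478010 to 115484725. Sirt4 had 27 and 26 counts in young and 35 in each of the old pools, so that its old pools (2.65 and 2.87 CPM) lay above its young pools (1.86 and 1.72 CPM). The log2 fold change of Sirt4 was 0.62, larger than that of Sirt7, but with an interval from -0.26 to 1.50 at these low counts (FDR = 0.482). Sirt5, which removes succinyl and malonyl groups, lies on chromosome 13 from 43365496 to 43395203. Its counts of 56 and 36 in young and 30 and 33 in old ISCs gave overlapping levels of 3.86 and 2.39 CPM against 2.27 and 2.70 CPM. The log2 fold change of Sirt5 was -0.33 (interval -1.14 to 0.49, FDR = 0.719). Sirt5 shared 14.2% of its 50-nt windows with other annotated genes, and reads there are uncertain.

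Counting error is wide for genes this low. The 18 counts of Sirt3 in ISC_22mth replicate 2 have an exact Poisson 95% interval from 10.7 to 28.4, and the 42 counts in ISC_2mth replicate 2 one from 30.3 to 56.8, and amplified reads are not independent molecules, so that such intervals cover counting error only. The summed level of the 3 mitochondrial sirtuins was 7.80 and 6.89 CPM in young and 6.51 and 7.04 CPM in old ISCs, which overlapped. The summed level of all 7 sirtuins was 49.8 and 56.2 CPM in young and 54.9 and 59.9 CPM in old ISCs and overlapped as well. The nuclear sirtuins (Sirt1, Sirt6 and Sirt7) summed to 27.1 and 30.6 CPM in young and to 32.8 and 33.6 CPM in old ISCs, and all 10 members to 81.5 and 91.1 CPM against 102 and 103 CPM. Neither of these sums overlapped between ages, and no sum was tested.

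**Figure D3:**
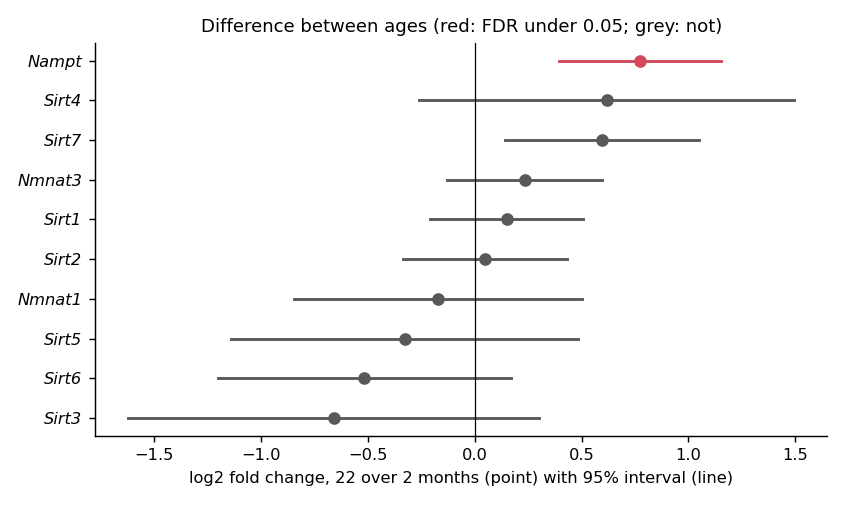
Log2 fold change between ages (point) with its 95% interval (line) for the 10 members, from edgeR's quasi-likelihood fit, ordered by size. The intervals of Nampt (0.39 to 1.15) and Sirt7 (0.14 to 1.05) lie above 0, and the widest belongs to Sirt3 (-1.62 to 0.30).

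Counted together, 6 members were higher and 4 lower in old ISCs (49.5% and 50.5% of all genes tested). Their median log2 fold change was 0.098, against -0.0049 over all genes. An unadjusted p under 0.05 in edgeR's test was reached by 2 of 10 members (Nampt and Sirt7), against 16.9% of all genes tested. Of the members, 0 were lower with such a p, against 7.65% of all genes tested. Pools of the ages did not overlap in 6 of 10 members, against 47.6% of all genes tested. In 5 members (24% of all genes) the old pools were the higher ones, and in 1 member, Sirt3 (23.6% of all genes), the lower ones. With total counts as the only scaling, the median of all genes moved to -0.50, and Sirt1, Sirt2 and Nmnat3 turned below 0. Relative to that shift, the same count of 4 members was lower, and Nampt lay 0.78 above it.

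Levels of different genes were compared as CPM per kb of exon, with exonic lengths from GENCODE vM21. Across the 4 pools, Nampt had the highest mean level at 3.75 CPM per kb, followed by Sirt2 at 3.39, Nmnat3 at 3.23 and Sirt1 at 3.16 CPM per kb, and the ranges of each of these neighbours over the pools overlapped. The lowest pool of Sirt1 (2.89 CPM per kb) lay above the highest of Sirt7 (2.66 CPM per kb), whereas the lowest pool of Nampt (2.61 CPM per kb) lay just below it. Sirt7, Sirt6, Nmnat1 and Sirt4 came next, at 1.95, 1.50, 1.38 and 0.949 CPM per kb, again with overlapping neighbours. Sirt5 and Sirt3 were lowest, at 0.460 and 0.331 CPM per kb, and every pool of Sirt4 lay above every pool of Sirt5. Among 13236 genes tested with a known length, 67.5% had a lower mean level than Nampt and 8.99% a lower one than Sirt3.

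The order within an age differed in the place of Nampt. In ISC_2mth pools Nampt had 2.61 and 2.94 CPM per kb and was the lowest of the leading 4 genes by mean level, whereas in ISC_22mth pools it had 5.44 and 4.03 CPM per kb and lay above every pool of Sirt1, Sirt2 and Nmnat3. Sirt6 and Sirt7 had 1.77 ± 0.327 and 1.55 ± 0.142 CPM per kb (SD, n = 2) in young ISCs, which overlapped. In old ISCs Sirt7 had 2.34 ± 0.444 and Sirt6 1.23 ± 0.451 CPM per kb (n = 2), and their pools did not overlap. The difference between these orders was not tested.

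**Figure D4:**
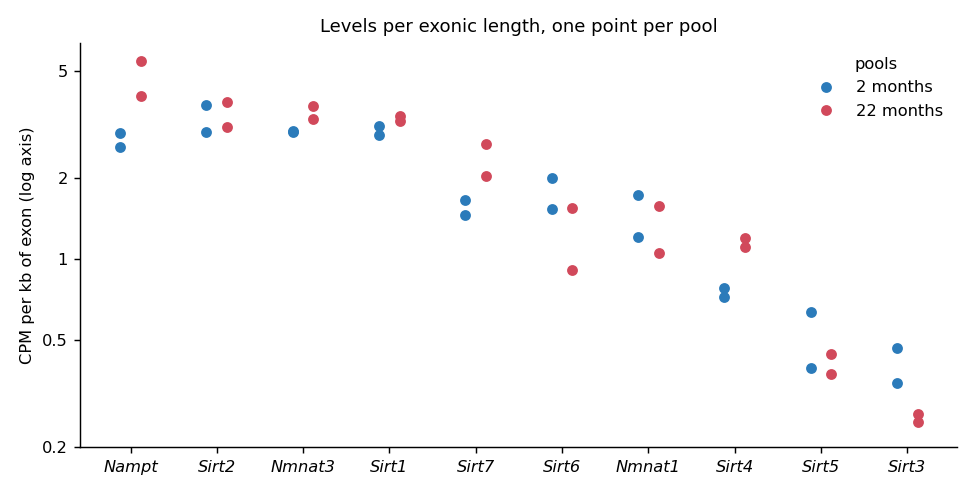
Level per exonic length (CPM per kb, log axis) of each member, with 1 point per pool and members ordered by their mean over the 4 pools. Nampt, Sirt2, Nmnat3 and Sirt1 lead (means of 3.75 to 3.16 CPM per kb), Sirt5 and Sirt3 are lowest (0.460 and 0.331 CPM per kb), and the old pools of Nampt lie above all other points.

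NAD can also be made from nicotinic acid, from nicotinamide riboside and, de novo, from tryptophan. Of 16 further genes of NAD synthesis, 7 passed the filter. In edgeR's test 0 of the 7 differed between ages at an FDR of 0.05, against 2.26% of all genes tested. An unadjusted p under 0.05 was reached by 1 of the 7, against 16.9% of all genes tested. The median log2 fold change of the 7 was 0.12. The 9 genes that failed the filter were Nmrk2 and 8 genes of tryptophan breakdown and the de novo route (Tdo2, Ido1, Ido2, Kmo, Kynu, Haao, Acmsd and Qprt), none of which had more than 6 counts in any library. Nmnat2, the cytosolic and Golgi relative of Nmnat1 and Nmnat3, had the lowest p of the list. Nmnat2 counts were 7 and 11 in young and 32 and 34 in old ISCs, or 0.483 and 0.729 CPM against 2.42 and 2.78 CPM. Its log2 fold change of 2.08 (95% interval 0.90 to 3.26) missed the threshold (FDR = 0.0602), and Nmnat2, like Parp3 described next, passed the filter on low counts only through its old pools. Naprt, which starts the route from nicotinic acid, had a log2 fold change of 0.29 (FDR = 0.607), and Nadk2, the mitochondrial NAD kinase, one of 0.21 (FDR = 0.562).

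Among 18 genes whose products consume NAD (the PARP family, Cd38, Bst1 and Sarm1), 15 were tested and 1 rose, Parp3, which takes part in the repair of DNA breaks. Over all genes tested, 1.63% rose at an FDR of 0.05. An unadjusted p under 0.05 in edgeR's test was reached by 5 of the 15, against 16.9% of all genes tested. Parp3 counts were 5 and 4 in young and 37 and 34 in old ISCs, or 0.345 and 0.265 CPM against 2.80 and 2.78 CPM. The old pools lay far above the young pools and close to each other, with a fold change of 8.93 (95% interval 3.61 to 22.1, FDR = 0.0112) that rests on few young counts. Parp3 passed the filter only through its old pools, and it missed the threshold with limma voom without weights (FDR = 0.0515). Parp1, the main producer of poly(ADP-ribose) after DNA damage, had 62.0 and 64.3 CPM in young and 45.9 and 46.1 CPM in old ISCs, a log2 fold change of -0.46 that missed the threshold (FDR = 0.0679). The paper's own list of genes that differ with age holds both Parp3, as higher, and Parp1, as lower in old ISCs. Parp10 also missed the threshold here, with 6.07 and 5.76 CPM against 3.10 and 2.95 CPM (log2 fold change -0.97, FDR = 0.0959). Cd38, chosen after its values were seen because it is a major NAD glycohydrolase, had 59.8 and 58.9 CPM in young and 70.3 and 72.2 CPM in old ISCs (log2 fold change 0.26, FDR = 0.287).

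Of 8 genes of NAD turnover and transport, 5 were tested and 0 passed in edgeR's test, against 2.26% of all genes tested. An unadjusted p under 0.05 was reached by 2 of the 5, against 16.9% of all genes tested. Nudt12, a hydrolase of NADH and related cofactors, had 3.86 and 3.18 CPM in young and 5.68 and 7.21 CPM in old ISCs (log2 fold change 0.87, FDR = 0.124). The log2 fold change was 0.33 for Pnp, the purine nucleoside phosphorylase (FDR = 0.293), and -0.27 for Nnt, the transhydrogenase that makes NADPH from NADH (FDR = 0.684).

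Of 16 regulators and targets of sirtuins, 15 were tested, 2 rose and 1 fell, and the median log2 fold change was 0.0027. Over all genes tested, 1.63% rose and 0.628% fell at an FDR of 0.05. Of the 15 partners tested, 5 had an unadjusted p under 0.05 in edgeR's test, against 16.9% of all genes tested. Acadl, a fatty acid oxidation enzyme deacetylated by SIRT3, rose from 14.1 and 14.2 CPM in young to 27.9 and 26.6 CPM in old ISCs (log2 fold change 0.95, FDR = 0.0038), and missed the threshold with total counts as the only scaling (FDR = 0.0549). Acadl is an enzyme of fat use, which enterocytes also express. Irf1, a transcription factor of the interferon response, fell from 16.6 and 18.1 CPM in young to 10.9 and 9.25 CPM in old ISCs (log2 fold change -0.78, FDR = 0.0336). Irf1 passed the threshold without ISC_22mth replicate 1 and missed it without any of the other 3 pools (FDR up to 0.135), and it also missed it with DESeq2 (FDR = 0.0948) and with offsets for GC content and length (FDR = 0.0694).

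CLOCK and BMAL1 (Arntl) drive Nampt in many tissues, so the genes of the circadian clock were counted as well. Of 17 clock genes, 16 were tested and 0 passed in edgeR's test, against 2.26% of all genes tested. An unadjusted p under 0.05 was reached by 1 of the 16, against 16.9% of all genes tested. The median log2 fold change of the 16 was -0.053. Clock had a log2 fold change of -0.034 and Arntl of -0.15, and the lowest p belonged to Per3, with 9.73 and 11.7 CPM in young and 9.16 and 5.32 CPM in old ISCs (log2 fold change -0.56, FDR = 0.261). Bhlhe40 and Per1 followed, at -0.32 and -0.37. The time of day at which tissue was taken is not given in the sources used here.

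**Figure D5:**
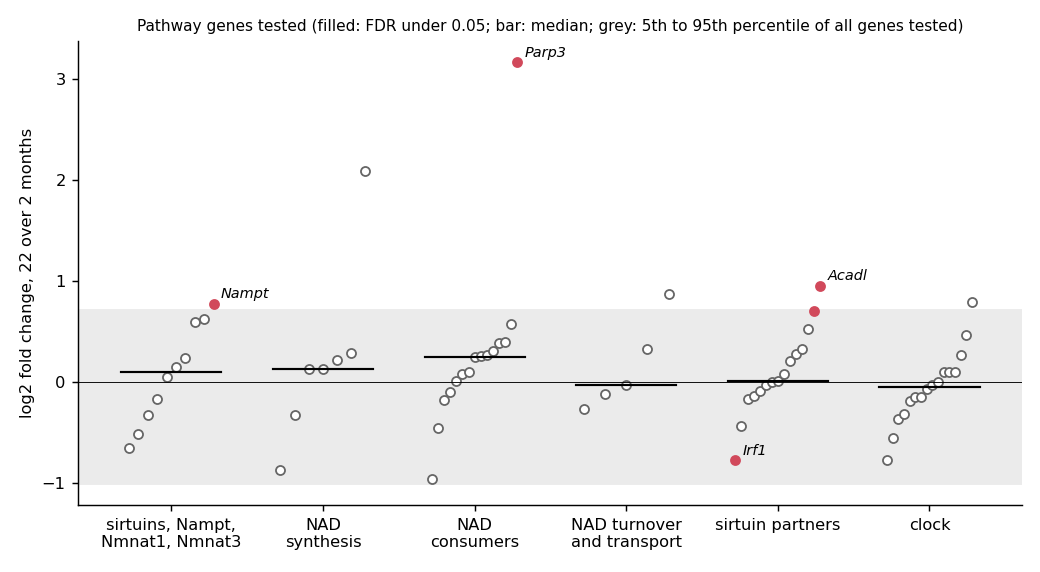
Log2 fold change between ages (vertical axis) of each tested gene, as 1 point, for the 10 members and the 5 pathway lists. Filled points passed an FDR of 0.05, those described in the text are named, horizontal bars are list medians, and the grey band holds the 5th to 95th percentile of all genes tested (-1.02 to 0.71). Parp3, at 3.16, lies highest, and Irf1, at -0.78, is the only filled point below 0.

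Over the 5 lists together, 58 of 75 genes were tested, and 4 of them, Parp3, Acadl and Irf1 included, passed, against 2.26% of all genes tested. The 3 genes whose pattern over the 4 pools was closest to that of Nampt, by the root mean square difference of centred log2 CPM among 6127 genes with a mean of at least 10 CPM, were Cmpk1 (0.025), Rnase1 (0.037) and Clic5 (0.042). Cmpk1 had 53.9 and 60.2 CPM in young and 106 and 81.8 CPM in old ISCs, higher in replicate 1 of the old pools as Nampt was. With 4 pools such likeness is a description only.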

How the data were processed

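The authors trimmed reads with Trimmomatic 0.30, aligned them with STAR 2.4.2a to GRCm38 and counted reads in exons of GENCODE vM15 genes with featureCounts. The deposited values are raw counts per gene, not normalized; strand setting and treatment of multiply aligned reads are not given in the sources used here. A gene was kept if 1 pool or more held over 5 reads and over 1 CPM of it, after the study's filter, and was tested between ages with edgeR 4.0.16 (R 4.3.3; TMM, glmQLFit, glmQLFTest, Benjamini-Hochberg over all genes tested, FDR 0.05), without covariate. Standard errors and 95% intervals came from the log2 fold change and its F value. The paper's limma voom with sample quality weights (limma 3.58.1), DESeq2 1.42.0 and further settings were alternatives. The fit was tested on simulated counts, and the outcome is not reported here. Replicate pools were checked for a library deposited more than once, and their counts differed (chi-square per gene 9.42 for ISC_2mth, 7.11 for ISC_22mth). Positions, lengths and 50-nt stretches came from GENCODE vM21 (GRCm38), and promoters from RefSeq (GRCm38.p6).

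Members and lists were chosen with earlier results of these data known. Named were all members, the list genes with FDR under 0.05, the 3 of lowest p in each list, and the 3 profiles closest to the member of lowest p. Genes named outside this rule, such as Clock, Arntl and Cd38, were chosen after their values were seen. Values of some listed genes are not reported here. Counts at these depths leave a floor of 3 reads, or 0.199 to 0.246 CPM.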

Additional observations from a re-analysis of the deposited data

How the results depend on the processing

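Nampt stayed above 0 in all 17 alternative fits and passed in 10 of the 13 that kept every pool (FDR from 0.00244 to 0.252). It missed the threshold with DESeq2 (0.77, FDR = 0.0618), total counts (0.28, FDR = 0.252) and offsets for GC content and length (0.65, FDR = 0.0809). With single pools left out it ranged from 0.54 to 0.97, and in those fits the lone pool of an age is assumed to vary like the other age. The number of members called was 0 with DESeq2 and with the offsets, and 0 to 1 with a pool left out. With total counts the 1 member called was Sirt6 (-1.01), while Sirt1 (-0.34), Sirt2 (-0.44) and Nmnat3 (-0.26) turned below 0; that scaling moved the median of all genes to -0.50. The genes called, 309 in all, became 611 with the likelihood ratio test, 197 with DESeq2, 4650 with total counts, 554 without the filter, 172 with the offsets, and 147 to 691 with a pool left out. The 4 pathway genes called became 8, 2, 24 and 2 with the likelihood ratio test, DESeq2, total counts and the offsets, and 2 to 6 with a pool left out. With a pool left out, the log2 fold change was -0.12 to 0.21 for Sirt2, -0.64 to 0.059 for Sirt5, 0.39 to 0.78 for Sirt7 and -0.48 to 0.11 for Nmnat1. The causes were not tested.

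Deviations of same-numbered pools had a correlation of -0.00015 across genes. A single correlation over all genes, many of them low, cannot settle whether same-numbered pools were handled together. With the replicate numbers as a block, 623 genes and 7 pathway genes were called and Nampt had 0.76 (FDR = 0.00244). The block changed no call of a member.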
